A study of Caenorhabditis elegans with 2 samples.

Results

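The genes described here encode aminoacyl-tRNA synthetases and translation factors of Caenorhabditis elegans, and the question was where the tagged zinc finger protein ZTF-29 was found at their starts. They were chosen by symbol in the Ensembl annotation of WBcel235, as protein-coding genes named with 1 letter, ars and -1 or -2, or with eif-, eef-, iff-, ife-, ifg- or eft- and a digit. This gave 70 of 19985 protein-coding genes, of which 31 were synthetase genes and 39 were factor genes. No gene with the prefix eft- carried that name in this annotation. The study measured chromatin immunoprecipitation with sequencing (ChIP-seq), in which DNA bound by a tagged protein is pulled down and sequenced. All samples belong to a single group, mid-stage embryos of strain RW12283, whose allele st12283 carries TY1, EGFP and 3xFLAG tags at ztf-29 on chromosome III, inserted by CRISPR. The eggs came from bleaching, the labelled age is 0 hour, whole embryos were used, and an antibody against GFP pulled down the protein. There are 2 biological replicates, and no other genotype, treatment or tissue was compared. Whole embryos mix all cell types, so a peak is not assigned to any of them, and the strain is a single tagged line.

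A tRNA synthetase joins an amino acid to its tRNA, so that the ribosome can read the genetic code. Cells keep one set for the cytoplasm and, in part from separate nuclear genes, another for the mitochondrion. Initiation factors bring the first tRNA, the message and the small ribosomal subunit together, and elongation factors then deliver charged tRNAs and move the ribosome along. These genes are transcribed by RNA polymerase II, whereas the tRNA genes themselves are transcribed by RNA polymerase III.

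A candidate is a line of a deposited ranked list, and a listed peak is a line of a deposited thresholded list. The irreproducible discovery rate (IDR) estimates the share of peaks ranked at least as high that would not recur between 2 compared sets of peaks. The limit for listing was 0.01. The signal is the value the authors gave each peak. Its scale is not stated, so signals of different lists are not compared. The conservative and full lists were made from both replicates, and each replicate also has lists of its own. An IDR in a replicate's own list is therefore not a measure of agreement between the replicates. A peak was counted at a gene where its summit fell inside a window that reached 500 bp upstream and 100 bp downstream around any annotated start of that gene. The lists hold 814 (conservative), 1114 (full), 466 (replicate 1) and 802 (replicate 2) listed peaks, and from 38705 to 54900 candidates. The labels give sheared fragments of 200 to 800 bp, which limits how finely a summit can be placed. The read depth of the libraries is unknown, no control library was analysed here, and with 2 samples of a single group no test between conditions was possible.

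Of the 70 genes, 6 had a listed peak in their window in at least 1 of the 4 lists (8.57%, 95% exact interval 3.21 to 17.7), against 2.42% of all protein-coding genes. The lists share the same 2 libraries, and the genes were chosen with earlier results known, so this is a description. They were the synthetase genes ears-2, kars-1 and aars-1, and the factor genes eif-3.C, iff-2 and eif-3.G. The bases around 5 of these summits are shown because they are the positions that carry the peaks. Each runs 5′ to 3′ on the strand of its gene, from the RefSeq copy of WBcel235 (ce11), over up to 50 bp on either side of the summit and without annotated UTR or coding bases. The summit is base 51 in every one. The summits of ears-2 and kars-1 were taken from the conservative list, those of aars-1 and iff-2 from the full list, and that of eif-3.G from replicate 2. The ears-2 sequence covers 69 bases at chrIV:390469-390537 (minus strand), and its capitals mark 2 copies of TTGCGAA, the first of which starts 29 bp and the other 7 bp upstream of the summit. The others lie on chromosome II, and capitals in kars-1 and eif-3.G mark the word ACGCGC. They are kars-1 at chrII:7072714-7072814 (minus strand), eif-3.G at chrII:8442377-8442477 (plus strand), aars-1 at chrII:11464500-11464600 (minus strand) and iff-2 at chrII:8561368-8561458 (minus strand).
ears-2: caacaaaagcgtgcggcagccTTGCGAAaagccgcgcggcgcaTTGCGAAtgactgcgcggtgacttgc
kars-1: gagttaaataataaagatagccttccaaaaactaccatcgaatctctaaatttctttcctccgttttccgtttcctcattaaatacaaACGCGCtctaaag
eif-3.G: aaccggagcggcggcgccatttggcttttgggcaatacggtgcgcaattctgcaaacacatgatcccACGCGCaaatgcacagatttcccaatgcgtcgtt
aars-1: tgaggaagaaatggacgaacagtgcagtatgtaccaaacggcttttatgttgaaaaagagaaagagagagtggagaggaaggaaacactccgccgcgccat
iff-2: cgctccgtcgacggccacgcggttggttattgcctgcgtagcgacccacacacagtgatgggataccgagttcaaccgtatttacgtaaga

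Among the 31 synthetase genes, ears-2 and kars-1 had a listed conservative peak, 6.45% of the class (95% exact interval 0.791 to 21.4), against 1.65% of all protein-coding genes. The interval, which covers counting error only, holds the share of all genes. Worm symbols mostly mark cytoplasmic enzymes with -1 and mitochondrial ones with -2. A listed conservative peak was present at 1 of 20 genes ending in -1 (5.00%, kars-1) and 1 of 11 ending in -2 (9.09%, ears-2). The exact intervals, 0.127 to 24.9 and 0.23 to 41.3, overlap widely. The suffix went against the RefSeq product name in 2 cases, aars-1 (named mitochondrial) and aars-2 (named cytoplasmic). By product name 0 of 10 genes named cytoplasmic had a listed conservative peak, which allows a share of up to 30.8%, and 1 of 4 named mitochondrial had one. The product names of 17 synthetases, that of kars-1 included, state no compartment. In the full list the counts by product name were 0 of 10 cytoplasmic genes and 2 of 4 mitochondrial genes, ears-2 and aars-1, while 2.05% of all protein-coding genes had a peak. The gene kars-1, also in the full list, falls in neither group. By suffix the full list held 2 of 20 genes ending in -1 (10%) and 1 of 11 ending in -2 (9.09%). These counts are too small to order the compartments.

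The strongest member was ears-2, which encodes the mitochondrial glutamyl-tRNA synthetase. Its signal was 116.0 in replicate 1 and 163.2 in replicate 2, at ranks 21 of 466 and 31 of 802, with an IDR of 1e-05 in each, the lowest value on its scale. In the conservative list its signal was 282.6, rank 27 of 814 and rank 3 among the 273 conservative peaks in a protein-coding window. The peak spans positions 390402 to 390566 of chromosome IV, 165 bp, with the summit at 390487, 19 bp upstream of the annotated start and 73 bp upstream of the start codon. The replicates placed the summit 20 and 16 bp upstream of the start. The neighbour uncp-18 starts in the opposite direction, and the conservative summit lies 73 bp upstream of it. The lists do not tell which of these starts the protein sits at. The nearest tRNA, snoRNA or snRNA gene, a snoRNA gene, was 16884 bp away.

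The peak at kars-1, for the lysyl-tRNA synthetase, was weaker and lay farther upstream. Its candidate had a signal of 38.7 and an IDR of 0.0171 in replicate 1, and a signal of 44.2 and an IDR of 0.0632 in replicate 2, so neither replicate listed it on its own. In the conservative list its signal was 82.97 at rank 593 of 814, with an IDR of 0.00348. The peak spans 7072626 to 7072901 of chromosome II, with its summit 349 bp upstream of the start, outside protein-coding genes, and no other protein-coding start lay within 1000 bp of the summit. Its width of 276 bp was the same as that of the full-list peaks at eif-3.C, aars-1 and iff-2. These spans therefore need not measure the extent of binding. The gene for the alanyl-tRNA synthetase with a mitochondrial product name, aars-1, lay just outside the conservative limit. Its candidate had an IDR of 0.0107 there and 0.00592 in the full list, where it was listed at a signal of 65.7 (rank 997 of 1114). The best candidate of replicate 1 had a signal of 26.8 (IDR 0.479) at -95 bp from the start. That of replicate 2 had a signal of 43.6 (IDR 0.0857) at -12 bp. The full-list summit lay 53 bp upstream of the aars-1 start, but 529 bp upstream of its start codon. It was also 344 bp upstream of the start of the divergent gene rga-1.

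The other synthetase genes had candidates with an IDR far above the limit, or none. In the ranked list behind the conservative list, 8 of 20 genes ending in -1 (40%) and 7 of 11 ending in -2 (63.6%) had a candidate, against 36.6% of all protein-coding genes. The exact intervals, 19.1 to 63.9% and 30.8 to 89.1%, overlap. The windows also differed in length, with a median of 604 bp for genes ending in -1 and 834 bp for those ending in -2. Over all protein-coding genes the median window was 601 bp. Next after kars-1, aars-1 and ears-2 came aars-2 (alanine, signal 42.6, IDR 0.275), nars-1 (asparagine, 45.5, IDR 0.295) and gars-1 (glycine, 51.4, IDR 0.327), all far from the limit. Among the genes named mitochondrial, rars-2 (arginine) had an IDR of 0.659, and pars-2 (proline) had no candidate in that list and one with an IDR of 0.649 in replicate 2. No candidate in any of the 4 ranked lists lay in the window of 10 of the 31 synthetase genes, 8 ending in -1 and 2 ending in -2. That is 32.3% of the synthetase genes, against 46.1% of all protein-coding genes. In the replicates' own ranked lists the shares were 45.0% (replicate 1) and 25% (replicate 2) of the genes ending in -1, and 54.5% and 63.6% of those ending in -2. Over all protein-coding genes they were 31.0% in replicate 1 and 31.3% in replicate 2.

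**Figure D1:**
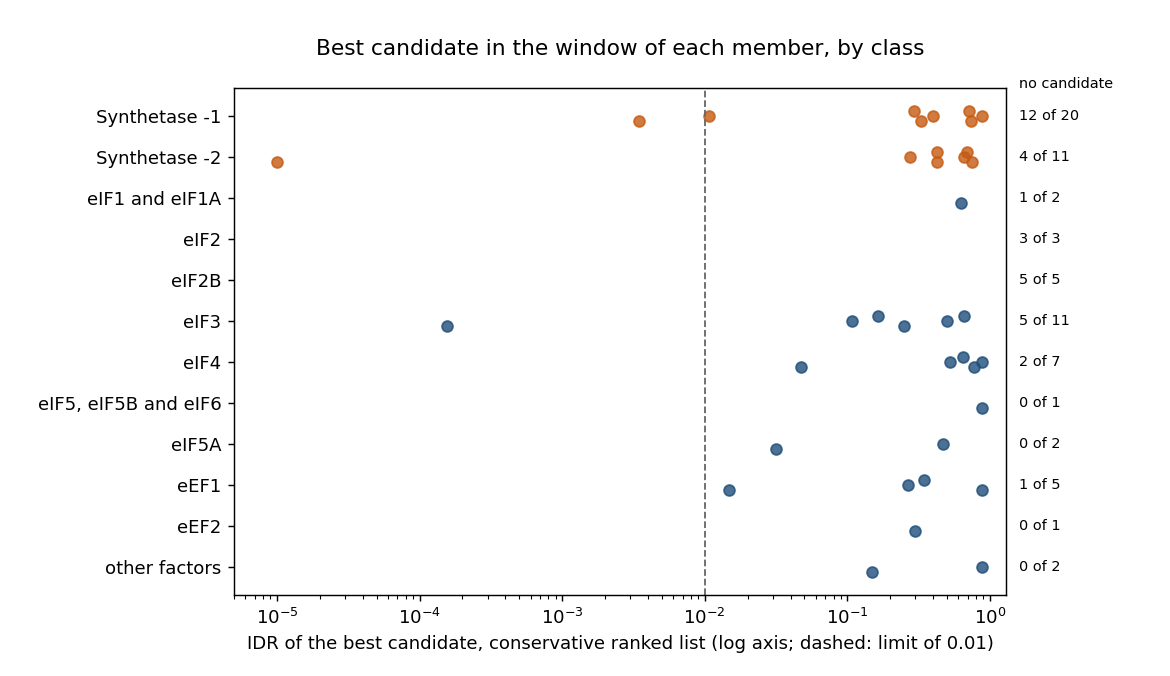
IDR of the best candidate in the window of each gene in the ranked list behind the conservative list (x axis, log scale, lower is more reproducible) by class (y axis); the column at the right counts the genes with no candidate. The 3 points left of the dashed limit of 0.01 are ears-2, eif-3.C and kars-1, and aars-1 lies just right of it at 0.0107.

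Among the 39 factor genes, eif-3.C alone had a listed conservative peak (2.56%, exact interval 0.0649 to 13.5, against 1.65% of all protein-coding genes). It encodes subunit C of eIF3, the large complex that holds the small ribosomal subunit ready for initiation. Its signal was 60.5 in replicate 1 and 90.1 in replicate 2, each above the median of that replicate's listed peaks (52.4 and 68.7), and its IDR was 0.000274 and 0.00013. The conservative peak, with a signal of 148.1 at rank 185 of 814, spans 9979770 to 9980045 of chromosome I. Its summit lay 246 bp upstream of the start, and 231 and 235 bp upstream in the replicates. The nearest start of another protein-coding gene, sys-1, was 3161 bp from the conservative summit, so this peak has no such partner in the window.

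No other eIF3 gene had a conservative candidate within the IDR limit of 0.01. Subunit gene eif-3.G was listed only by replicate 2, with a signal of 49.9, an IDR of 0.00374 and a summit 340 bp upstream. In replicate 1 its best candidate had a signal of 17.4 and an IDR of 0.874, and in the conservative ranked list an IDR of 0.164. In the full ranked list its IDR was 0.0141, just outside the limit. Of the 11 eIF3 genes, 6 had a conservative candidate (54.5%, exact interval 23.4 to 83.3, against 36.6% of all protein-coding genes). Those of eif-3.B (signal 64.2, IDR 0.108), eif-3.D (7.80, IDR 0.248), eif-3.I (64.7, IDR 0.503) and eif-3.E (39.2, IDR 0.657) were not listed anywhere. No candidate in any ranked list lay at eif-3.F, eif-3.H or eif-3.L, which encode further subunits of the same complex. The eif-3.D window held 2 conservative candidates, and the one with the lower IDR was the weak one given above, at -470 bp from the start. The best candidate at eif-3.D in the full ranked list was another, with a signal of 51.8 and an IDR of 0.0727 at -270 bp. The best candidates of the replicates lay near that place, at -269 bp in replicate 1 (signal 30.8, IDR 0.5) and -298 bp in replicate 2 (signal 23.6, IDR 0.786).

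Genes of eIF2, which carries the initiator tRNA, and of eIF2B, its exchange factor, had no candidate in the conservative ranked list (0 of 3 and 0 of 5 genes, which allows shares of up to 70.8% and 52.2%), against 36.6% of all protein-coding genes. Both limits lie above that share, so these absences do not set the classes apart. Replicate 1 had a candidate at eif-2beta (IDR 0.775), eif-2Balpha (0.939) and eif-2Bepsilon (0.846), and replicate 2 at eif-2alpha (0.794), all close to the top of the IDR scale. The eIF1 pair gave a candidate at eif-1.A alone (IDR 0.628). The initiation-related factor genes eif-2D (IDR 0.148) and eif-2A (0.876), which are not eIF2 subunits, had a candidate each, as did eif-6 (0.876), a factor of the large ribosomal subunit.

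In the eIF4 class, which binds the cap of the message, ife-2 came closest to the limit. Its candidate had a signal of 55.8 and an IDR of 0.0472, at 216 bp upstream. The best candidate in replicate 1 had an IDR of 0.259 (at -219 bp), and that in replicate 2 had 0.793 (at -120 bp). The other cap-binding genes with a candidate, ife-3, ife-4 and ife-5, had IDRs from 0.528 to 0.772, and ife-1 and the scaffold gene ifg-1 had no candidate. The gene eif-4A3, placed in this class by its symbol, encodes a helicase of the exon junction complex and had an IDR of 0.876.

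The 2 genes for eIF5A, which helps the ribosome through difficult stretches, differed. The gene iff-2 was listed by replicate 1 (signal 47.1, IDR 0.000917) and in the full list (68.6, IDR 0.00326), but not by replicate 2 (30.4, IDR 0.503) or in the conservative list (IDR 0.0318). Its full-list summit lay 41 bp upstream of an annotated start and 453 bp upstream of the start codon, and 636 bp from the snoRNA gene F54C9.12. The gene iff-1 had an IDR of 0.471. Of the 5 genes for eEF1, the complex that delivers charged tRNAs to the ribosome, eef-1G came closest, with an IDR of 0.0149 in the conservative ranked list and 0.0113 in replicate 1, but 0.733 in replicate 2. Candidates at eef-1A.2 had an IDR of 0.0148 in replicate 1 (at -284 bp) and 0.788 in replicate 2 (at -178 bp). In the conservative ranked list the IDR at eef-1A.2 was 0.265. The gene eef-2, for the factor that moves the ribosome along, had an IDR of 0.299. The factor genes iff-2, eef-1G and eef-1A.2 thus had a low IDR in replicate 1 and a high one in replicate 2, and eif-3.G showed the opposite.

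**Figure D2:**
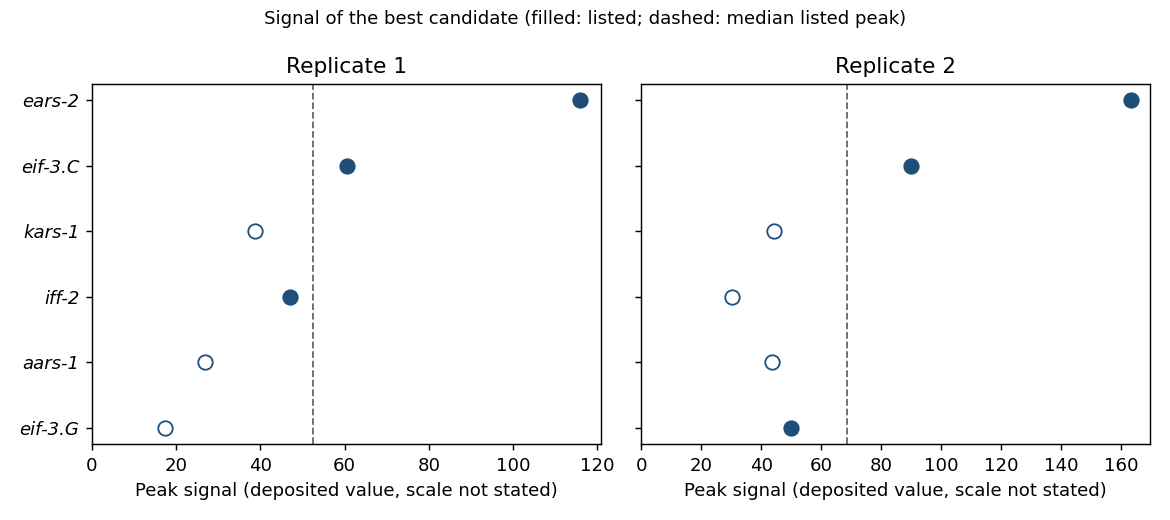
Signal of the best candidate at the 6 genes with a listed peak in at least 1 list (x axis, the authors' value, not comparable between panels) in replicate 1 and replicate 2; filled points are listed in that replicate, and the dashed line is the median of its listed peaks. Both replicates listed ears-2 and eif-3.C, and neither listed kars-1 or aars-1.

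Each replicate listed 3 of the 70 genes (4.29%), against 1.11% of all protein-coding genes in replicate 1 and 1.26% in replicate 2, and 2 of the 3 were the same genes. Over the replicates the mean was 4.29% for the members, with the same count in each, and 1.18% ± 0.106 for all genes (SD, n = 2). The conservative list also held 3 members (4.29%, exact interval 0.893 to 12, against 1.65%). The full list held 5 (7.14%, exact interval 2.36 to 15.9, against 2.05%). The conservative interval includes the share of all genes, and the full-list interval lies above it. Both cover counting error only, and the members were chosen with earlier results known. Candidates with an IDR of at most 0.05, listed or not, lay at 7 members (10%), against 2.81% of all protein-coding genes.

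Candidates of any rank were present at 37 of 70 members in the conservative ranked list (52.9%, exact interval 40.6 to 64.9, against 36.6% of all protein-coding genes). The share was 55.7% against 35.8% in the full ranked list. In the replicates it was 57.1% against 31.0% (replicate 1) and 44.3% against 31.3% (replicate 2), which is 50.7% ± 9.09 for members and 31.2% ± 0.216 for all genes (SD, n = 2). The members had more annotated starts: 51.4% of them had a single start, against 73.7% of all genes, and each further start adds to the window. With only the 5′ end of each gene, so that every window had the same length, the shares were 44.3% of members and 32.3% of all genes. The best candidates had a median IDR of 0.422 in members and 0.707 in all genes, so most were far from the limit of 0.01. Both replicates had a candidate at 25 members (35.7%), against 16.9% of all genes, and 20 members had none in any ranked list (28.6%, against 46.1%). Among the 25, the best summits of the replicates were within 50 bp of each other at 13, with a median separation of 39 bp, so at the other genes the replicates' candidates need not be the same feature. The separation was not computed over all protein-coding genes, so it does not set the members apart.

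**Figure D3:**
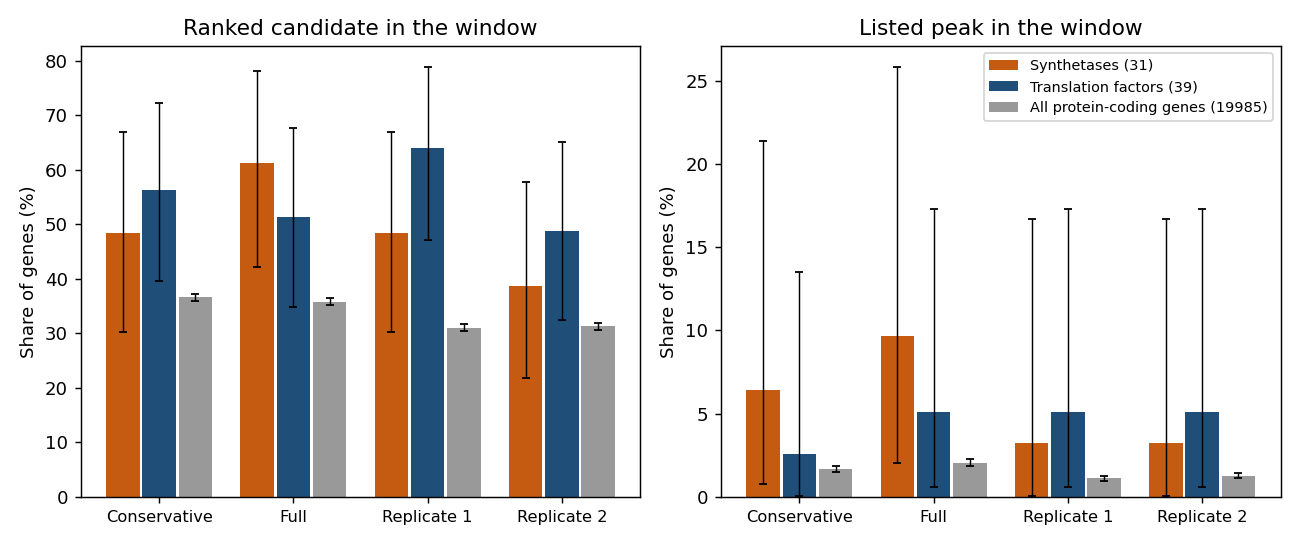
Share of genes (y axis, %) with a candidate (left) or a listed peak (right) in the window, for synthetase genes, factor genes and all protein-coding genes, by list (x axis); bars are shares and lines are exact 95% intervals, which cover counting error only. The intervals of synthetases and of factors overlap each other in every list.

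The members' summits lay at a wide range of distances. In the conservative ranked list the median of the best candidates was 216 bp upstream (37 members, quartiles 374 and 53 bp upstream), against 181 bp upstream over 7311 genes with a candidate (quartiles 328 and 42.5 bp). Among the 6 genes with a listed peak, 3 summits lay from 16 to 53 bp upstream of a start (ears-2, iff-2 and aars-1) and 3 lay more than 200 bp upstream (eif-3.C, eif-3.G and kars-1). Annotated worm starts are often trans-splice sites, so these are distances to the annotated end. All 6 summits lay outside the records of protein-coding genes. Most of each window lies upstream of a start, and the same count over all genes was not made, so this does not set the members apart.

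**Figure D4:**
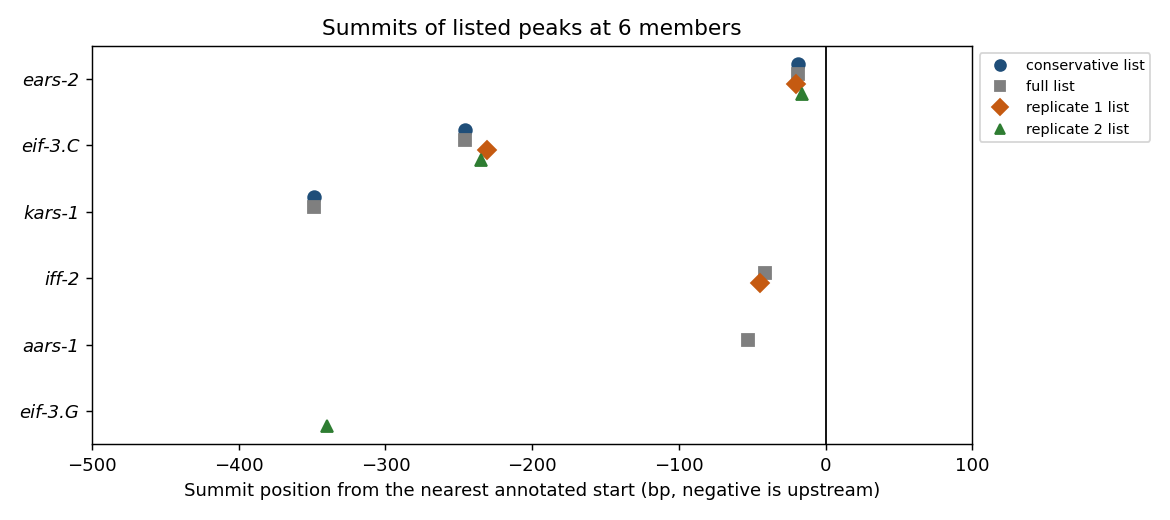
Summit position from the nearest annotated start (x axis, bp, negative is upstream) of the listed peaks at 6 genes (y axis), with a symbol for each list. The summits of ears-2, iff-2 and aars-1 lie between 16 and 53 bp upstream, and those of eif-3.C, eif-3.G and kars-1 between 231 and 349 bp upstream.

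No listed peak of a member lay within 200 bp of a tRNA, snoRNA or snRNA gene, the nearest being 636 bp away at iff-2. Most conservative peaks in a protein-coding window, 237 of 273, were likewise away from such genes, so this does not set the members apart. None of 5 searched motifs was found within 50 bp of the 6 summits, which says only that these letters are not in these windows. Within 50 bp of the summit, on both strands, GTTCGANNC, the core of the B box inside tRNA genes, was present at 14.4% of the 814 conservative peaks and at 1.42% of the 564 that were more than 200 bp from a tRNA, snoRNA or snRNA gene. The A box of tRNA genes was present at 1.11% of the 814, 2 consecutive copies of the telomeric unit TTAGGC at 7.25%, TATAAA at 4.42% and TTTTTT at 15.8%. In the whole windows at the 5′ end of the genes, the B box core was in 2 of 70 members (2.86%) and 3.58% of all protein-coding genes, and TATAAA in 64.3% and 58.1%. The run TTTTTT was in 91.4% and 94.7%, and the A box and the telomeric units were in 0 of 70 members and in 1.41% and 0.656% of all genes.

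Of the 2080 words of 6 bases counted on either strand, ACGCGC was in the most of the 6 summit windows, at 4 of 6 (ears-2, eif-3.C, eif-3.G and kars-1). It was in 8.85% of the 814 conservative peaks. The word was picked for its count in these windows, so this is a description. In all 4 it read on the strand of the gene and began downstream of the summit, at 25 bp in ears-2 and eif-3.C, 17 bp in eif-3.G and 38 bp in kars-1. The ears-2 copy lies downstream of the annotated start and is not printed. The word TTGCGAA was picked because the ears-2 window holds it 2 times upstream of the start, so this too is a description. It was in 3.32% of the conservative peaks. It was also in the iff-2 window, 1 time on the opposite strand, where it reads TTCGCAA from 43 bp downstream of the summit, past the printed bases. The summit base and the 50 bases on either side held 60.4% G and C at ears-2, 56.4% at iff-2, 54.5% at eif-3.G, 53.5% at eif-3.C, 46.5% at aars-1 and 34.7% at kars-1, against a median of 50.5% over the conservative peaks (quartiles 45.5 and 55.4%). Of these genes only ears-2, eif-3.C and kars-1 have their summit in the conservative list.

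A further list of translation genes was counted in the same way, with release and recycling factors, mitochondrial factors, regulators of initiation, RNA polymerase III subunits and tRNA-modifying enzymes. Of its 52 symbols, 46 matched the annotation. Of these, 3 had a listed conservative peak (6.52%, exact interval 1.37 to 17.9, against 1.65% of all protein-coding genes). They were pab-2 (signal 123.8, IDR 0.000663), for a poly(A)-binding protein, erfa-3 (119.0, IDR 0.0012), for the release factor eRF3, and rpac-19 (90.9, IDR 0.00231), for a subunit shared by RNA polymerases I and III. The full list added tut-2, a gene of tRNA thiolation, and replicate 2 alone added drr-2. As with the members in the conservative list, the interval includes the share of all genes.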

How the data were processed

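The data are ChIP-seq peak lists of 2 biological replicates of a single group, on ce11 per the deposited readme. Which software aligned the reads and called the peaks is not given here by any label or header. The authors deposited, for each peak, a signal of unstated scale and a score (the IDR rescaled, capped at 1000). The ranked lists add a second score, −log10 of the IDR over all peaks, capped at 5, which was turned back into the IDR. The read depth is unknown.

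Summits (start plus offset) were placed in windows of the Ensembl release 115 annotation, and sequences and product names were read from the RefSeq copy of the same assembly. All 70 members had a product name. The best candidate was the one with the lowest IDR. Shares have exact (Clopper-Pearson) intervals at 95%, for counting error only, and no set of genes was tested. Named genes were all members listed in any of the 4 lists, the 10 others with the lowest conservative IDR and the best of each class. Further genes named were chosen after their values were seen. The members and lists were chosen with earlier results of these data known. The window rule was tested on simulated summits. Alternatives are given in the closing section. Python 3.11.15, numpy 2.4.6, pandas 2.3.3, scipy 1.17.1 and matplotlib 3.10.9 were used.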

Additional observations from a re-analysis of the deposited data

How the results depend on the processing

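Of 79 values under alternatives, 52 kept within 1.5 times the reported count, or within the spread of the replicates for the candidate share, and 27 moved. With the full list the counts were 5 members, 2 synthetase genes ending in -1, 2 factor genes and 410 of all protein-coding genes. Leaving out a replicate gave 3 to 3 members, 1 to 1 synthetase genes, 0 to 0 ending in -1, 1 to 1 ending in -2, 2 to 2 factor genes and 221 to 251 of all protein-coding genes, with 44.3 to 57.1% of members at a candidate. Over all protein-coding genes the candidate shares were 31.3% without replicate 1 and 31% without replicate 2. Without replicate 1 the members were ears-2, eif-3.C and eif-3.G, and without replicate 2 ears-2, eif-3.C and iff-2. With a window of 200 bp upstream there were 1 member (ears-2), 1 synthetase gene, 0 ending in -1, 0 factor genes and 140 of all genes. A candidate then lay at 32.9% of members and 22.6% of all genes. With 1000 bp upstream eif-2Bgamma joined, for 2 factor genes, while 455 of all genes were counted. The candidate share was 62.9% of members and 49.8% of all genes. With only the peaks at or above the median signal of their list, 1 synthetase gene, 0 ending in -1 and 158 of all genes were counted. The candidate share there was 42.9% of members and 23.5% of all genes. At an IDR of at most 0.05 there were 7 members, 2 synthetase genes ending in -1, 4 factor genes and 561 of all genes. The candidate share was 10%, against 2.81% of all genes. By product name 0 cytoplasmic synthetases were listed. The cause of these moves beyond the change of list, window or limit was not tested. Counts of 3 members and fewer limit every share, and unknown depth limits the reading of absent peaks. No paired analysis was possible because there is a single group.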
